A study of Mus musculus with 8 samples.

Results

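The troponin genes encode the 3 subunits of the calcium switch on the thin filament, and all 8 mouse members were read here from a table of raw counts for 29844 Ensembl genes: Tnnc1 and Tnnc2 (troponin C), Tnni1, Tnni2 and Tnni3 (troponin I), and Tnnt1, Tnnt2 and Tnnt3 (troponin T). Each symbol matched 1 Ensembl ID, and 7 of the 8 passed the filter on low counts that left 14059 genes for testing; Tnnc2 did not. The cells were primary embryonic cardiomyocytes from hearts of H2b-eGFP mouse embryos (B6.Cg-Tg(HIST1H2BB/EGFP)1Pa/J, whose fluorescent histone transgene all groups carry) taken at E18.5, shortly before birth. They were digested to single cells and grown for 4 days in medium with serum on polydimethylsiloxane (PDMS), a silicone rubber, that was either soft (about 10 kPa) or stiff (about 150 kPa). Total RNA from 4 libraries per substrate was sequenced, and the series asks how stiffness affects gene expression in these cells. Each library held between 27646471 and 34693673 coding counts. Whether the 4 libraries per substrate are separate litters or cultures is not stated, so the p-values here speak of library-to-library spread, which may be technical. The library codes in the labels begin differently for soft and stiff, and a batch behind those codes could not be separated from the substrate.

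In striated muscle, troponin C binds calcium, troponin I holds the actin filament off when calcium is low, and troponin T anchors the complex to tropomyosin. Each subunit has isoforms tied to a muscle type. Tnnt2 and Tnni3 are the cardiac forms, Tnni1 and Tnnt1 the slow skeletal forms, Tnni2, Tnnt3 and Tnnc2 the fast skeletal forms, and Tnnc1 serves heart and slow muscle alike. The fetal heart makes much of its troponin I from Tnni1 and replaces it with Tnni3 around and after birth, which makes the Tnni1 to Tnni3 ratio a common gauge of cardiomyocyte maturity.

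Most of these genes lie in troponin I and troponin T pairs on the mouse genome (RefSeq, GRCm38.p6). On chromosome 1, Tnni1 (135783033 to 135810989) and Tnnt2 (135836315 to 135852268) are 25.3 kb apart, with Lad1 between them. On chromosome 7, Tnnt1 (4504569 to 4515975) ends 2.3 kb before Tnni3 (4518305 to 4522718), with no annotated gene between. Also on chromosome 7, Tnni2 (142441816 to 142444410) and Tnnt3 (142498771 to 142516213) are 54.4 kb apart, with Lsp1 between them. The troponin C genes stand alone, Tnnc1 on chromosome 14 (31208312 to 31211729) and Tnnc2 on chromosome 2 (164777161 to 164779734). The pairs on chromosome 1 and beside Tnni3 join a slow skeletal with a cardiac form, and the last pair joins fast skeletal forms. Tnnt3 overlaps Prr33, and without strand information reads from both cannot be told apart.

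The 250 bases before a start listed by RefSeq are shown for the 4 abundant members and for Tnnt1, the close neighbour of Tnni3, because their library patterns are compared later. RefSeq windows on GRCm38.p6 matched 6 of the 8 members, and where a gene has 2 listed starts (Tnnt2 and Tnni1) the upstream one is used: chr1:135836084-135836333 on the plus strand for Tnnt2, chr1:135799171-135799420 on the plus strand for Tnni1, chr7:4522529-4522778 on the minus strand for Tnni3, chr14:31208062-31208311 on the plus strand for Tnnc1 and chr7:4515976-4516225 on the minus strand for Tnnt1. These starts come from the promoter table: the Tnni1 window lies well inside the gene span given above, and the Tnni3 window lies mostly inside its span. The windows are written 5′ to 3′ along the gene, and capitals mark matches, on either strand, to 4 motifs. The TATA box was searched as TATAAA only, so that close forms, such as TATATAA in the Tnnc1 window, are not marked. The M-CAT element, bound by TEAD factors, was searched as CATTCC. The GATA site was searched with A or T before its core and A or G after it. The CACC box was searched as CCACCC.
Tnnt2: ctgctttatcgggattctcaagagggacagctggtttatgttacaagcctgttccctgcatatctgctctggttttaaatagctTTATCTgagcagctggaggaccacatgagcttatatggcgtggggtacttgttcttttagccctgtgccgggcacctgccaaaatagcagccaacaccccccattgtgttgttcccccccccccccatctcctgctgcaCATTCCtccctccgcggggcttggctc
Tnni1: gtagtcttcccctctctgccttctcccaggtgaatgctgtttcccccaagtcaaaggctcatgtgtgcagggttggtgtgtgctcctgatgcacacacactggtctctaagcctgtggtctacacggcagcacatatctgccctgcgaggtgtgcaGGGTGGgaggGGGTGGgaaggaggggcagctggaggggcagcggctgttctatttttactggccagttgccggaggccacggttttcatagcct
Tnni3: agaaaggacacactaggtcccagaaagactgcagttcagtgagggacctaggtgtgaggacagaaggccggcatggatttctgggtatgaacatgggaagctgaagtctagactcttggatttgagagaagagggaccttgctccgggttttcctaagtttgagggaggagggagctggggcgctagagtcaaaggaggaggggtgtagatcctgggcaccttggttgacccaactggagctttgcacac
Tnnc1: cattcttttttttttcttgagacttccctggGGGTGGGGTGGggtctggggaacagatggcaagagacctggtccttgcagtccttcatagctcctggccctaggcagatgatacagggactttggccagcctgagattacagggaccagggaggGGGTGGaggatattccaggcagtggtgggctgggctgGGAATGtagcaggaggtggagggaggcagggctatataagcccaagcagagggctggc
Tnnt1: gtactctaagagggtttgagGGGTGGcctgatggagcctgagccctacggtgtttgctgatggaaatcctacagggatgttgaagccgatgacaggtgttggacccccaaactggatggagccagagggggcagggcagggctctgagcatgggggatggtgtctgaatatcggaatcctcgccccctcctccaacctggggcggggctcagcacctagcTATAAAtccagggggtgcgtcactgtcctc
Tnnt2 held an M-CAT match 27 to 22 bases before the start and a GATA match on the opposite strand 166 to 161 bases before it. Tnnc1 held an M-CAT match on the opposite strand, 58 to 53 bases before the start, and 3 CACC matches, of which 2 overlap by 1 base. Tnni1 held 2 CACC matches. Tnnt1 held a TATAAA match 30 to 25 bases before the start and 1 CACC match, and Tnni3 held none of these 4 motifs as searched. Over all 32851 windows of this length, 12.4% held the TATA box, 12.6% M-CAT, 26.5% a GATA site and 28.1% a CACC box. The E-box CANNTG, not capitalised, was in all 5 windows and in 66.2% of all windows. The MEF2 motif and the CArG box of SRF, in 2.92% and 1.47% of all windows, had no match in the 5. A match is a description of the letters and not a measured binding site.

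Troponin C came almost entirely from Tnnc1, at 99.9% or more of troponin C counts in each library. Its level, as CPM (a gene's count scaled to a fixed library total, here with TMM factors), was 229, 158, 330.0 and 784 CPM in soft 1 to 4 and 203, 193, 345 and 546 CPM in stiff 1 to 4. Soft 4 was highest and stiff 4 next, soft 2 was lowest, and the groups overlapped. The highest library stood 4.98-fold above the lowest, against 1.94-fold for Tnnt2. On average Tnnc1 stood at 375 ± 282 CPM on soft PDMS against 321 ± 165 CPM on stiff PDMS (SD, n = 4 each). The fast skeletal gene Tnnc2 had 0 counts in 7 of 8 libraries, where a count of 0 allows up to 0.107 CPM, and 18 counts (0.53 CPM) in stiff 4.

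Troponin I was shared between the fetal and the adult cardiac gene. Tnni1 stood at 269, 186, 292 and 563 CPM in soft 1 to 4 and at 213, 205, 320 and 314 CPM in stiff 1 to 4. Tnni3 stood at 196, 137, 161 and 353 CPM in soft 1 to 4 and at 200, 182, 190.0 and 218 CPM in stiff 1 to 4. Soft 4 was highest and soft 2 lowest for both genes, and the stiff libraries of Tnni3 lay close together (198 ± 15.3 CPM, against 212 ± 97.3 CPM on soft; SD, n = 4 each). Tnni2, the fast skeletal form, stood at 2.96, 2.78, 2.21 and 2.44 CPM in soft 1 to 4 and at 1.87, 2.76, 0 and 1.29 CPM in stiff 1 to 4. By counts, Tnni1 made up 51.4% to 64.2% of troponin I per library, Tnni3 35.3% to 48.2% and Tnni2 at most 0.85%. Stiff 3 had no Tnni2 count, which allows up to 0.0900 CPM there, and the groups of all 3 troponin I genes overlapped.

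Troponin T was almost entirely Tnnt2 by counts. Tnnt2 stood at 2476, 2076, 2265 and 4026 CPM in soft 1 to 4 and at 2564, 2093, 2677 and 3092 CPM in stiff 1 to 4. Soft 4 again was highest and soft 2 lowest. Of all troponin T counts, from 98.2% to 99.3% per library lay in Tnnt2. Tnnt1 stood at 19.9, 15.9, 16.9 and 14.6 CPM in soft 1 to 4 and at 29.9, 24.1, 17.4 and 4.44 CPM in stiff 1 to 4. Its lowest value was in stiff 4, where Tnnc1 and Tnnt2 were above their means, and its stiff libraries spanned a wider range than its soft ones. Tnnt3 stood at 10.9, 21.6, 14.9 and 21.2 CPM in soft 1 to 4 and at 16.8, 7.45, 9.81 and 16.9 CPM in stiff 1 to 4, with no library that stood apart. Counts were not divided by transcript length, and shares between genes describe reads, not molecules.

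**Figure D1:**
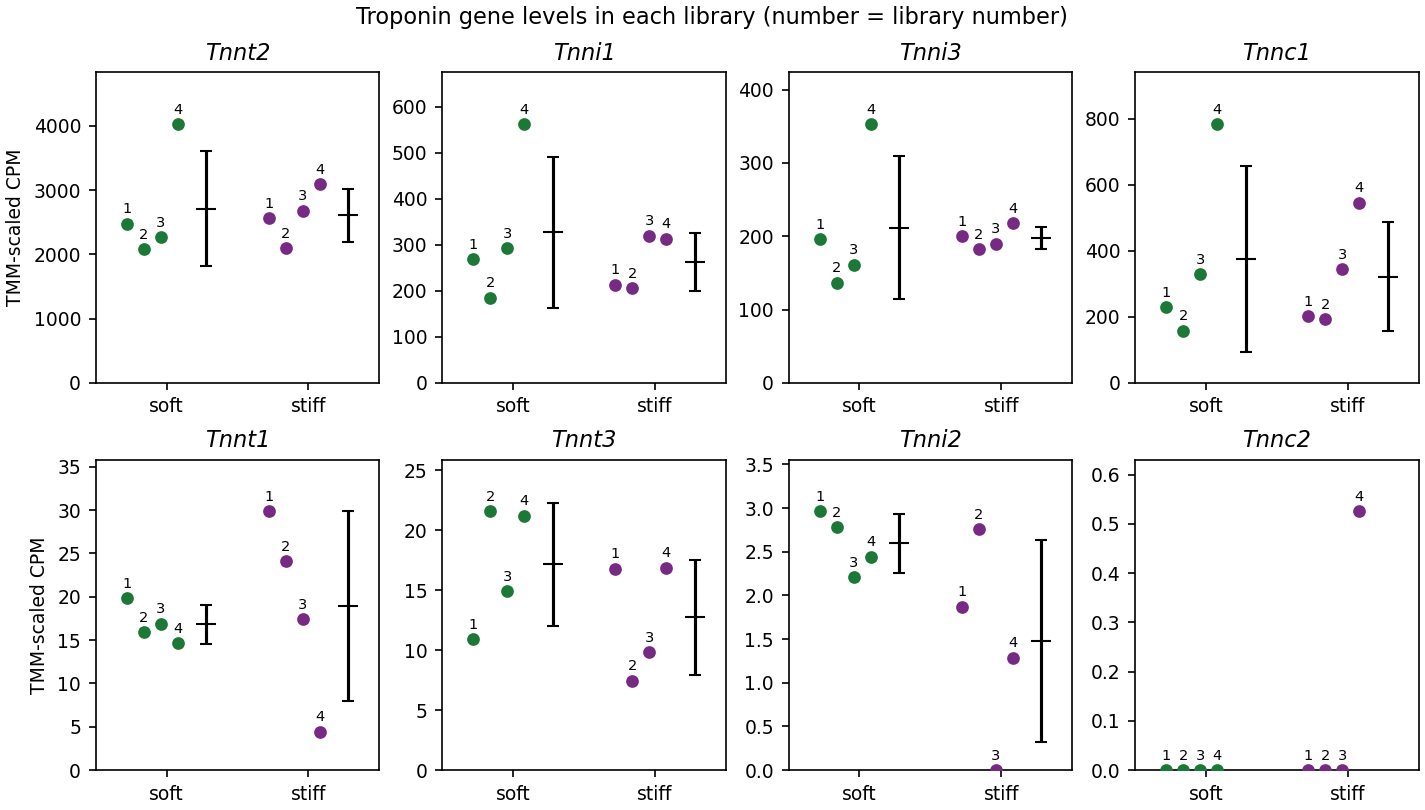
TMM-scaled CPM of the 8 troponin genes in each library, soft in green and stiff in purple, with library numbers beside the points and black bars for mean ± SD (n = 4, not drawn for Tnnc2). Each panel has its own linear axis from 0; soft 4 is the highest point for Tnnt2, Tnni1, Tnni3 and Tnnc1, and the groups overlap in every panel.

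No troponin gene passed the test between substrates. By edgeR's quasi-likelihood test, with Benjamini-Hochberg adjustment over 14059 genes, 0 of the 7 tested members were called, and their adjusted p was 0.99997. Among all tested genes, 0 (0%) were called, 130 (0.925%) had an unadjusted p under 0.05, and 0 of the 7 members did. The share of 0.925% lies below the 0.05 expected by chance where no gene differs. The test may thus be conservative in these data, and the reason was not tested. DESeq2 and limma-voom also called 0 genes. The groups did not overlap for 1.29% of all tested genes and for 0 of the 7 members. Of the 7 estimates, 6 were lower and 1 higher on stiff, with a median log2 fold change (stiff over soft) of -0.22, against -0.01 over all tested genes.

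The intervals show what size of difference these libraries leave room for in a fit that treats them as unpaired. The log2 fold change was -0.06 (SE 0.22) for Tnnt2, with a 95% interval from 0.70-fold to 1.32-fold. For Tnni3 it was -0.10 (SE 0.24), from 0.65-fold to 1.33-fold. Tnni1 had -0.32 (SE 0.29), from 0.52-fold to 1.24-fold, and Tnnc1 -0.22 (SE 0.52), from 0.38-fold to 1.92-fold. Among the scarcer members the estimate was 0.17 (SE 0.42) for Tnnt1 and -0.43 (SE 0.34) for Tnnt3. It was -0.81 (SE 1.1) for Tnni2, a value that includes the library with no count. A p that misses the threshold does not show that the substrates were alike.

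A single library set the sign for the 4 abundant members. Without soft 4 the log2 fold change turned to 0.20 for Tnnt2, 0.09 for Tnni1, 0.27 for Tnni3 and 0.44 for Tnnc1. Tnnt2 also turned to 0.04 without stiff 2, and Tnnt1 turned to -0.14 without stiff 1. Tnni2 moved to -0.40 without stiff 3, and Tnnt3 stayed below 0 whichever library was left out, between -0.60 and -0.24. Soft 4 held 27742 CPM of 22 other sarcomere genes in sum, where soft 1 to 3 held 16098 to 17310 CPM and 16546 to 25172 CPM on stiff PDMS. In such bulk samples fewer cells of a type and less RNA per cell cannot be told apart.

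**Figure D2:**
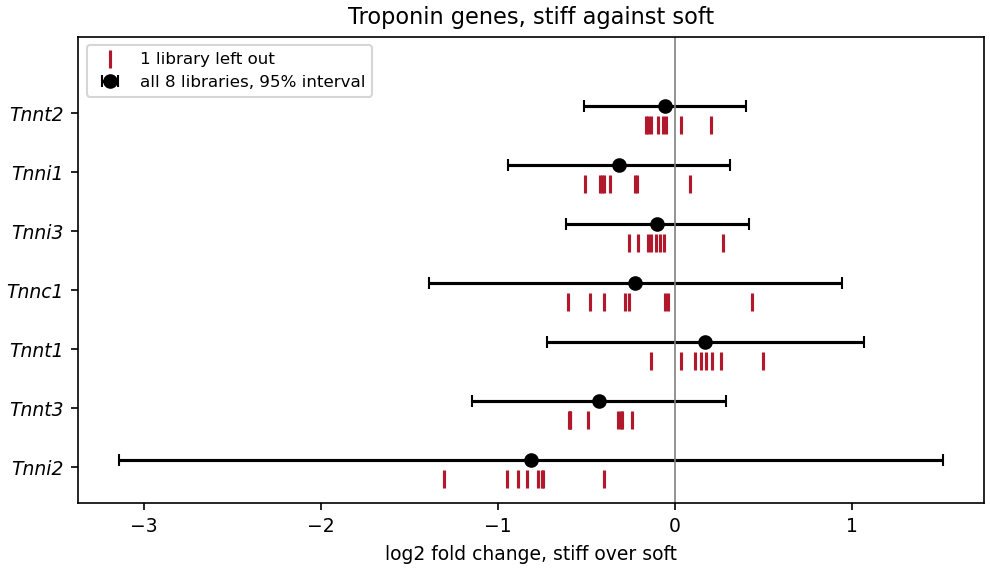
Log2 fold change, stiff over soft, of the 7 tested troponin genes from edgeR with 95% intervals (black), and the estimates with each library left out in turn (red ticks). Every interval crosses 0, and the tick to the right of 0 for Tnnt2, Tnni1, Tnni3 and Tnnc1 at 0.20, 0.09, 0.27 and 0.44 is the fit without soft 4.

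The fetal to adult troponin I ratio was above 1 in every library. Tnni1 counts divided by Tnni3 counts gave 1.37, 1.36, 1.82 and 1.59 in soft 1 to 4 and 1.07, 1.12, 1.68 and 1.44 in stiff 1 to 4. The ratio compares counts and not molecules, since transcript lengths were not used, but its change between libraries does not depend on library depth or the scaling factor. Stiff 1 and stiff 2 were lowest, soft 3 highest, and the groups overlapped. The ratio was 1.53 ± 0.22 on soft and 1.33 ± 0.29 on stiff (SD, n = 4 each). On the log2 scale stiff minus soft was -0.22, a 0.86-fold difference, with a two-sided exact permutation p of 0.286, where 4 against 4 cannot go below 0.029. Leaving out 1 library in turn gave -0.34 to -0.12; the values farthest from the estimate were those without stiff 3 (-0.34), soft 3 (-0.14), stiff 2 (-0.15) and stiff 1 (-0.12). Without both libraries numbered 4 it was -0.25.

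The counting intervals of the ratio were narrow. Tnni1 made up 51.6% of Tnni1 plus Tnni3 counts in stiff 1, with an exact Clopper-Pearson 95% interval from 50.7% to 52.5%. In soft 3 it made up 64.5%, with an interval from 63.7% to 65.3%. Both intervals cover counting error only, as the labels name no molecular identifiers. The share was 57.5% in soft 2 and 62.7% in stiff 3.

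None of the other ratios tested passed either, with p adjusted over all 7 ratios. The design nearly fixed this outcome. With a smallest possible exact permutation p of 0.029, no ratio could pass unless most of the 7 reached that value together. The adjusted p-values therefore do not show that the ratios were alike on both substrates. Tnni1 plus Tnni3 over Tnnt2, the balance of troponin I to troponin T, ran from 0.155 to 0.228 on soft and from 0.161 to 0.190 on stiff, with a log2 difference of -0.11 (exact permutation p = 0.429, adjusted 0.60). It moved to -0.21 without soft 2, -0.026 without soft 4 and -0.066 without stiff 1. Tnnc1 over Tnnt2 ran from 0.0759 to 0.195 on soft and from 0.0790 to 0.177 on stiff, with a log2 difference of -0.07 (exact permutation p = 0.83, adjusted 0.914). The difference turned to 0.17 without soft 4, 0.03 without soft 3, 0.11 without stiff 1 and 0.03 without stiff 2. Tnnt1 over Tnnt2 had a log2 difference of -0.10 (exact permutation p = 0.914, adjusted 0.914), which turned to 0.58 without stiff 4 and 0.0066 without soft 1. Tnnt3 over Tnnt2 had -0.44 (exact permutation p = 0.286, adjusted 0.60). It moved to -0.20 without soft 2. Tnni2 over Tnni3 had -2.20 with 0.5 added to each count (exact permutation p = 0.20, adjusted 0.60). That size came from the library with no Tnni2 count, and without stiff 3 it was -0.47. For Tnnc2 over Tnnc1, at 0 in 7 libraries, neither a difference nor a p is given, though it was counted among the 7 in the adjustment. The adjusted p of the Tnni1 to Tnni3 ratio was 0.60.

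**Figure D3:**
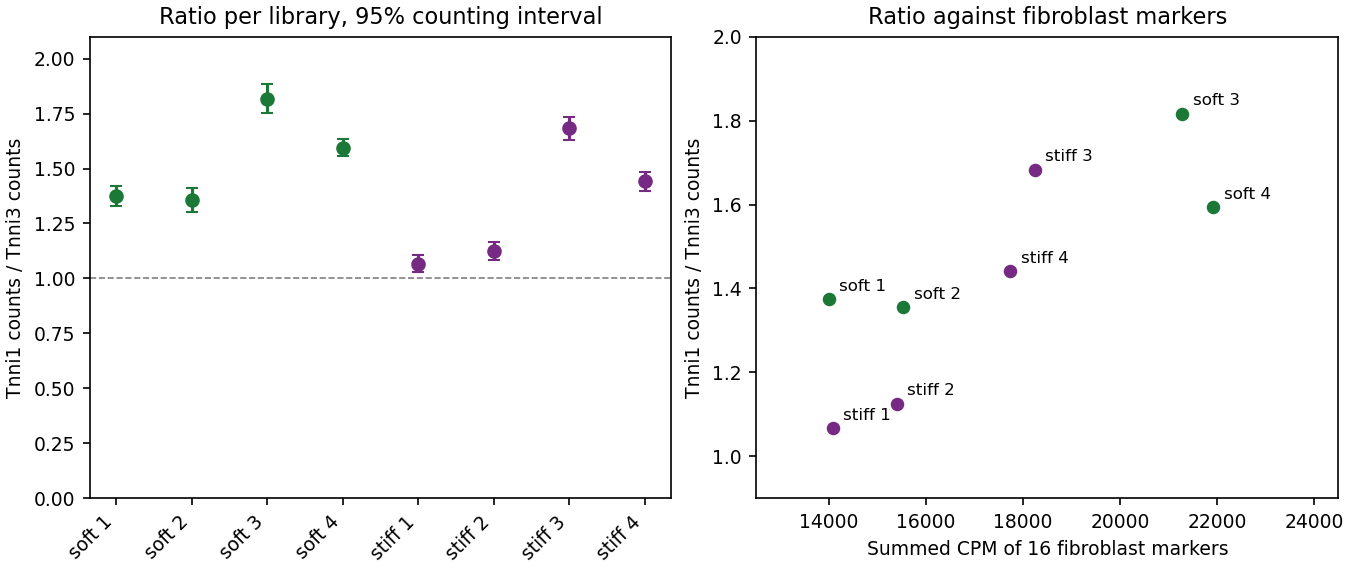
Left, Tnni1 counts divided by Tnni3 counts in each library (soft in green, stiff in purple) with 95% Clopper-Pearson counting intervals and a dashed line at 1; right, the same ratio against the summed CPM of 16 fibroblast markers. The ratio runs from 1.07 in stiff 1 to 1.82 in soft 3. Libraries with higher fibroblast sums tend to have higher ratios (Pearson r = 0.81 over 8 libraries). Axes on the right do not start at 0.

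The labelled cell type had its defining genes in every library, with the cardiac myosin gene Myh6 at 2634 to 7425 CPM, beside transcripts of fibroblasts. The ratio moved with the level of those fibroblast transcripts across libraries by Pearson r, while Spearman rho did not pass after adjustment. The 16 fibroblast markers, all of them tested, summed to 13991 to 21925 CPM on soft PDMS against to 14074 to 18243 CPM on stiff PDMS. Against the log2 of this sum, the log2 ratio had a Pearson r of 0.81 (exact permutation p = 0.0153, adjusted over 3 relations 0.0458) and a Spearman rho of 0.79 (exact permutation p = 0.0279, adjusted 0.0838) over 8 libraries. Without soft 3 and soft 4, the libraries farthest from the median sum, r was 0.73. Libraries 3 and 4 of both substrates held the higher ratios and the higher sums. The permutation treats the 8 libraries as independent, which the labels do not establish, and with 4 libraries per substrate no value within a substrate is given. None of the 16 markers was called, and 5 estimates were higher and 11 lower on stiff. Their median log2 fold change was -0.05, with single markers from -2.14 to 0.14. Among those named by the rule, all lower on stiff, Col1a1, which encodes a chain of fibrillar collagen, showed a log2 difference of -0.49 (SE 0.25), the crosslinking enzyme gene Loxl1 -0.44 (SE 0.26), Col1a2 -0.26 (SE 0.21) and fibronectin (Fn1) -0.06 (SE 0.17). Without soft 4, Col1a1 moved to -0.28 and Loxl1 to -0.15. The part of fibroblast RNA in the troponin I ratio was not tested.

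The relations to the library total and to the myosin ratio did not pass the test. Against the log2 total, r was 0.19 (exact permutation p = 0.651, adjusted 0.853) and rho 0.19 (exact permutation p = 0.665, adjusted 0.665), with r at 0.80 without soft 3 and stiff 4. Myh7 to Myh6, the fetal to adult ratio of the myosin heavy chains in mouse, was 0.362, 0.562, 0.610 and 0.105 in soft 1 to 4 and 0.426, 0.524, 0.694 and 0.0969 in stiff 1 to 4. Soft 4 and stiff 4 stood far below the other 6 libraries in the myosin ratio, while their Tnni1 to Tnni3 ratios of 1.59 and 1.44 lay within the range of the others. Between both ratios r was -0.08 (exact permutation p = 0.853, adjusted 0.853) and rho 0.26 (exact permutation p = 0.536, adjusted 0.665), and without soft 4 and stiff 4 r was 0.60. Both of these relations rest on which libraries are included.

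The 4 abundant members moved together from library to library, as far as soft 4 allows a reading. These relations were added after the values were seen, and all share the libraries, the scaling and the mix of cells. Of all pairs of the 7 tested members, 8 were chosen for a test, and the adjusted p covers only those 8. The pairs without a test had r from -0.60 (Tnnt1 and Tnnc1) to 0.41 (Tnnt2 and Tnnt3). Tnni1 and Tnnc1 were closest, with r = 0.94 (exact permutation p = 1.24e-04, adjusted 9.92e-04) and rho = 0.98 (exact permutation p = 3.97e-04, adjusted 0.00317) over 8 libraries, and r = 0.86 without soft 2 and soft 4. Tnnt2 and Tnni3 had r = 0.93 (exact permutation p = 0.00107, adjusted 0.00427) and rho = 0.90 (exact permutation p = 0.00456, adjusted 0.0122), and r = 0.73 without soft 4 and stiff 4. Tnnt2 and Tnnc1 had r = 0.90 (exact permutation p = 0.00218, adjusted 0.00582) and rho = 0.90 (exact permutation p = 0.00456, adjusted 0.0122), and r = 0.57 without soft 4 and stiff 4. Tnni1 and Tnni3 had r = 0.85 (exact permutation p = 0.0159, adjusted 0.0212) and rho = 0.64 (exact permutation p = 0.0962, adjusted 0.128). Without soft 2 and soft 4 their r was 0.07, so that this relation rests on those libraries. The same holds for Tnni3 and Tnnc1, at r = 0.81 (exact permutation p = 0.0107, adjusted 0.0171) and rho = 0.71 (exact permutation p = 0.0576, adjusted 0.0921) and r = 0.28 without soft 2 and soft 4.

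Of the genomic neighbours, the pair of Tnni1 and Tnnt2 had a correlation past the threshold, and the other pairs did not. Tnni1 and Tnnt2 had r = 0.90 (exact permutation p = 0.00419, adjusted 0.00838) and rho = 0.88 (exact permutation p = 0.00724, adjusted 0.0145), with r = 0.60 without soft 2 and soft 4. This r is not particular to neighbours. The pairs of abundant members on different chromosomes, given above, had r from 0.81 to 0.94. Tnnt1 and Tnni3, whose start windows are printed above, had r = -0.20 (exact permutation p = 0.525, adjusted 0.525) and rho = -0.21 (exact permutation p = 0.619, adjusted 0.708), with r = -0.30 without stiff 1 and stiff 4. In stiff 4, Tnnt1 lay 1.84 below its mean on the log2 scale (a deviation of -1.84) while Tnni3 lay 0.14 above its own. Tnni2 and Tnnt3 had r = 0.32 (exact permutation p = 0.494, adjusted 0.525) and rho = 0.10 (exact permutation p = 0.840, adjusted 0.840), with r = -0.35 without stiff 3 and stiff 4. A difference between these correlations was not tested, and Tnni2 and Tnnt1 had far fewer counts than their neighbours.

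**Figure D4:**
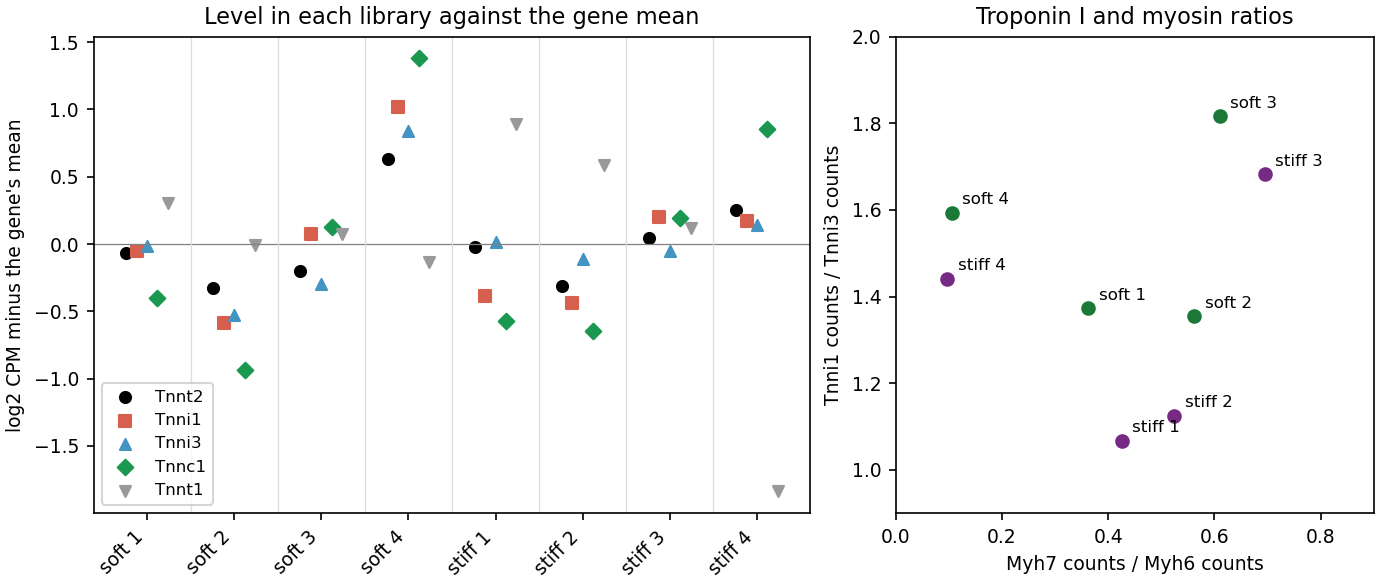
Left, deviation in log2 CPM from the mean of all 8 libraries for Tnnt2, Tnni1, Tnni3, Tnnc1 and Tnnt1; right, Tnni1 to Tnni3 against Myh7 to Myh6, both as ratios of counts, soft in green and stiff in purple. Soft 4 lies above the mean for the 4 abundant genes, Tnnt1 lies 1.84 below its mean in stiff 4, and both libraries numbered 4 stand at a myosin ratio of 0.105 or less; axes do not all start at 0.

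Set against other sarcomere genes, Tnnt2, Tnni1, Tnni3 and Tnnc1 each had a smaller ratio of highest to lowest library than in CPM. Per 100 CPM of the 22 other sarcomere genes, Tnnt2 held from 12.3 CPM (stiff 4) to 14.9 CPM (stiff 3). Its mean was 13.8 ± 0.94 on soft and 13.2 ± 1.16 on stiff (SD, n = 4 each). Tnnc1 ran from 0.95 CPM (soft 2) to 2.83 CPM (soft 4) on this scale, and Tnni3 from 0.82 CPM (soft 2) to 1.27 CPM (soft 4). Tnni1 ran from 1.07 CPM (stiff 1) to 2.03 CPM (soft 4). Library sizes were also set by the geometric mean of counts plus 0.5 over the 19 of these genes that passed the filter (cardiomyocyte scaling). That measure weighs each gene alike, unlike the sum above. With it, the log2 fold change was -0.02 for Tnnt2, -0.02 for Tnni3, -0.21 for Tnni1 and -0.07 for Tnnc1, and 0 members were called.

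The genes with the most similar pattern over the 8 libraries were found among 6176 genes of at least 32 CPM by the highest Pearson r of log2 CPM. For Tnnt2 they included Mybpc3 (cardiac myosin binding protein C, r = 0.99), the nucleoside transporter gene Slc29a1 (0.98) and the kinesin gene Kifc3 (0.98). For Tnni3 they were Srprb, a subunit of the signal recognition particle receptor (0.98), the mitochondrial ADP/ATP carrier gene Slc25a4 (0.97), the ATP synthase gene Atp5b (0.96) and the muscle kinase gene Dmpk (0.96). For Tnni1 they were Uqcc2, an assembly factor of respiratory complex III (0.99), Wdr6 (0.98), the adenylate kinase gene Ak1 (0.98) and the clathrin adaptor gene Ap2s1 (0.98). For Tnnc1 they were the actin-binding profilin gene Pfn1 (0.99), Arhgef2 (0.99), the amino acid transporter gene Slc7a5 (0.98) and Cad (0.98), which starts pyrimidine synthesis. They were chosen as the highest of many values, and without soft 4 the r of these 15 genes ran from 0.85 to 0.99. The 4 lists share no gene.

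The proteins that troponin works with on the filament did not pass the test. Of 13 thin filament partners, all tested, 0 were called and 0 had an unadjusted p under 0.05; 5 estimates were higher and 8 lower on stiff, with a median log2 fold change of -0.09 against -0.01 over all genes. Cardiac actin (Actc1) averaged 5862 ± 3148 CPM on soft PDMS against 5408 ± 1620 CPM on stiff PDMS (SD, n = 4 each), and Tpm1, the main tropomyosin gene, at 4582 ± 909 and 4308 ± 455 CPM. The lowest p-values of the list belonged to Tpm2 at -0.19 (SE 0.20) and Lmod2, a pointed-end filament protein gene, at 0.15 (SE 0.19). Of 22 other sarcomere genes 19 were tested and 0 called, with 11 higher, 8 lower and a median of 0.0067. Myom1 and Xirp1 were listed at 0 in every library, and whether their reads were left out in counting was not tested. Ttn showed a log2 difference of 0.20 (SE 0.23), Myh6 -0.10 (SE 0.32), the Z-disc gene Tcap 0.44 (SE 0.43) and the light chain gene Myl3 -0.30 (SE 0.29), and Myl3 turned to 0.16 without soft 4. Tcap moved to 1.04 without soft 4 and to 1.27 without both libraries numbered 4, with unadjusted edgeR p-values of 0.018 and 0.0030, and was not called in either fit.

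Regulators of troponin did not pass either. Of 16 kinase and phosphatase genes whose products act on troponin I, all tested, 0 were called and 0 had an unadjusted p under 0.05, with 10 higher, 6 lower and a median of 0.04. The protein kinase A subunit gene Prkar1a stood at 933 ± 150.3 CPM on soft PDMS against 939 ± 48.0 CPM on stiff PDMS, and the phosphatase gene Ppp1cb at 897 ± 261 and 872 ± 147 CPM (SD, n = 4 each). Stk4, which encodes the Hippo kinase MST1, showed a log2 difference of 0.28 (SE 0.20) and Tnni3k, a cardiac kinase gene that interacts with troponin I, 0.27 (SE 0.22), which fell to 0.01 without stiff 4. Of 14 splicing factor genes that act on troponin T exons, all tested, 8 were higher and 6 lower, with a median of 0.02. Among them 0 were called and 1 had an unadjusted p under 0.05, as did 0.925% of all tested genes. That gene was Mbnl3, a muscleblind family member, at 5.50 ± 2.65 CPM on soft PDMS against 11.6 ± 5.10 CPM on stiff PDMS, and a log2 difference of 1.08 (SE 0.48, edgeR adjusted p = 0.99997). Mbnl2, the highest of this list, showed a log2 difference of 0.04 (SE 0.19), Rbfox2 -0.12 (SE 0.17) and Celf4 -0.54 (SE 0.33).

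Among 19 transcription factor genes known to act on troponin promoters, all tested, 0 were called and 0 had an unadjusted p under 0.05, with 7 higher, 12 lower and a median of -0.03. Hand2 stood at 14.6, 14.3, 14.7 and 19.4 CPM in soft 1 to 4 and at 11.6, 12.2, 8.46 and 11.0 CPM in stiff 1 to 4. Its groups did not overlap, as for 1.29% of all tested genes, and its log2 fold change was -0.54 (SE 0.29, edgeR adjusted p = 0.99997). Gata6 showed a log2 difference of -0.24 (SE 0.19), Tbx20 0.31 (SE 0.25) and Mef2a 0.03 (SE 0.17). Without stiff 4, Gata6 moved to -0.44 and Tbx20 to 0.046, and neither was called by edgeR.

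Skeletal muscle genes were looked at because Tnni2, Tnnt3 and Tnnc2 belong to fast muscle. Of 21 markers, 5 were at 0 in every library (Myod1, Myf5, Myf6, Pax7 and Myh4, the determination factors, a satellite cell factor and a fast myosin), 9 were tested and 0 were called, with 3 higher, 6 lower and a median of -0.34. The list summed to 521 ± 252 CPM on soft PDMS against 476 ± 126 CPM on stiff PDMS (SD, n = 4 each), most of it from Casq1, Myl1 and Ckm. Casq1, a calcium buffer of the sarcoplasmic reticulum, stood at 281 ± 117 and 277 ± 86.2 CPM, and the light chain gene Myl1 at 90.9 ± 22.4 and 95.4 ± 32 CPM. Ckm, the muscle creatine kinase gene that the heart also uses, stood at 278 CPM in soft 4 and at 51.1 to 86.5 CPM in the other 7 libraries, with a log2 fold change of -0.73 (SE 0.54) that turned to 0.27 without soft 4. Myh8 showed a log2 difference of -0.73 (SE 0.60).

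Markers of other cells of the heart were present on both substrates. The 11 smooth muscle and pericyte markers, 1 higher and 10 lower on stiff with a median of -0.16, summed to 3338 ± 667 CPM on soft PDMS against 2928 ± 506 CPM on stiff PDMS. In this list 0 were called and 1 had an unadjusted p under 0.05, as did 0.925% of all tested genes. That 1 was the receptor gene Notch3, with a log2 fold change of -0.52 (SE 0.23). Acta2 had -0.24 (SE 0.21), Tagln -0.16 (SE 0.22) and Myh11 -0.62 (SE 0.39). The 11 endothelial markers summed to 289 ± 49.0 CPM on soft PDMS against 306 ± 68.2 CPM on stiff PDMS, with 8 higher, 3 lower, a median of 0.09 and 0 called; Flt1 showed a log2 difference of 0.11 (SE 0.22), Emcn 0.21 (SE 0.30), Esam -0.47 (SE 0.33) and Vwf 0.61 (SE 0.56). The 10 leukocyte markers summed to 148 ± 26.7 and 151 ± 28.5 CPM, with 5 higher, 5 lower, a median of -0.04 and 0 called; Lyz2 stood at 95.8 ± 33.3 and 95.8 ± 19.7 CPM, Csf1r at 11.6 ± 2.37 and 10.2 ± 4.18 CPM, Fcgr3 at 4.19 ± 1.58 and 7.40 ± 1.86 CPM, and Adgre1 at 6.82 ± 3.61 and 8.53 ± 1.92 CPM.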

How the data were processed

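The authors deposited raw read counts per Ensembl gene, 1 column per library. The submitters' processing notes list these tools without saying what each did: HTSeq 0.6.1, DESeq2, TopHat2 2.0.14, edgeR, Bowtie2, Cufflinks, FastQC 0.11.2, TopHat; the build is GRCm38. Strand handling during counting is not given in the sources used here. Deposited noncoding counts were not used here. Of 29844 IDs, 29150 matched a symbol.

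Groups follow the substrate label, and library numbers follow the order of the samples. Counts were filtered with filterByExpr (minimum count 10, minimum total 15), scaled by TMM and tested in R 4.3.3 with edgeR 4.0.16 (robust quasi-likelihood, substrate as sole term, adjusted p under 0.05); limma 3.58.1 (voom) and DESeq2 1.42.0 were alternatives. The pipeline was tested on simulated counts. It called 0 of 67 genes given a 1.5-fold difference. At 2-fold it found 12 of 67, at 4-fold 44 of 66, and there were 3 false calls. The absence of a call alone therefore says little about differences of 2-fold or less, and some 4-fold differences were missed too. The simulated libraries were drawn independently, with no effect shared by libraries of the same number. Ratios used counts plus 0.5 and two-sided exact permutation tests. Log2 CPM used a prior count of 2. Named genes were all 8 troponin genes and, per list, the 2 highest and the 2 of lowest p, plus 4 genes of most similar pattern for 4 members. Of the last, 1 is not reported here. Members and lists were chosen with earlier results of these data known. Other alternatives were scaling factors, filters, a replicate block and leaving out libraries.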

Additional observations from a re-analysis of the deposited data

Results flagged for a closer look

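In groups of 4 libraries, 11 of 128 groups examined (8.59%) held a library far from the other 3 by Dixon's criterion, where chance alone gives about 1 in 20 (6.40 groups). Among the troponin ratios, Tnnt1 to Tnnt2 in soft 4 was -8.10 on the log2 scale, below -7.07 to -6.96 in the other soft libraries. Soft 4 was the highest soft library for Actc1 (10552 CPM, others 3905 to 4796), Myh6 (7425 CPM, others 2634 to 3432), Tcap (19.0 CPM, others 5.66 to 6.75), Hand2 (19.4 CPM, others 14.3 to 14.7) and Ckm (278 CPM, others 51.1 to 59.3). It was also highest for the summed thin filament partners (19257 CPM, others 10494 to 11734) and the summed other sarcomere genes (27742 CPM, others 16098 to 17310). Stiff 4 was the highest stiff library for Gata6 (148 CPM, others 90.1 to 94.8). Soft 1 was the highest soft library for Lyz2 (145 CPM, others 73.3 to 83.7) and for the summed leukocyte markers (188 CPM, others 133 to 138).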

How the results depend on the processing

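Under every alternative run, 0 coding genes and 0 troponin genes were called, and no gene or ratio crossed the threshold. For the ratios, the replicate block and the setting without both libraries numbered 4 could not cross it, as too few permutations are possible there. The number of coding genes at an unadjusted p under 0.05 was 130, and 72 with cardiomyocyte scaling, 473 without the filter, 322 with DESeq2, 360 with the replicate block, 245 without both libraries numbered 4 and 122 to 272 with 1 library left out. Direction changed for these log2 fold changes. Tnnt1 was -0.18 with limma-voom and -0.081 with the replicate block. With cardiomyocyte scaling Prkar1a was -0.036, Mbnl2 -0.044, Mef2a -0.060, Casq1 0.046 and Lyz2 -0.090. Casq1 was 0.015 with limma-voom and 0.013 with the replicate block, and Myh6 0.00066 with the replicate block. Without both libraries numbered 4, a setting chosen after seeing the data, Tnnt2 was 0.11, Tnni3 0.22, Tnnc1 0.052, Actc1 0.11, Myh6 0.18, Myl3 0.15, Mbnl2 -0.050, Mef2a -0.10, Casq1 0.10 and Ckm 0.13, and the Tnnt1 to Tnnt2 ratio 0.31 and Tnnc2 to Tnnc1 -0.12, a value set by the 0.5 added to each count since Tnnc2 is at 0 in those 6 libraries. Without the 2 libraries farthest in the x measure, Tnni1 to Tnni3 against Myh7 to Myh6 was 0.60 and Tnni2 against Tnnt3 -0.35. The cause of these changes was not tested.

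With 1 library left out, log2 fold changes that changed sign ran from -0.14 to 0.50 for Tnnt1, -0.16 to 0.20 for Tnnt2, -0.51 to 0.087 for Tnni1, -0.26 to 0.27 for Tnni3 and -0.61 to 0.44 for Tnnc1. They ran from -0.34 to 0.34 for Actc1, -0.16 to 0.064 for Tpm1, -0.064 to 0.35 for Ttn, -0.30 to 0.38 for Myh6, -0.47 to 0.16 for Myl3, -0.041 to 0.13 for Prkar1a, -0.16 to 0.16 for Ppp1cb, -0.055 to 0.23 for Mbnl2, -0.069 to 0.10 for Mef2a, -0.22 to 0.29 for Casq1, -0.10 to 0.26 for Myl1, -0.97 to 0.27 for Ckm, -0.25 to 0.026 for Tagln, -0.025 to 0.29 for Flt1 and -0.10 to 0.27 for Lyz2. The Tnnt1 to Tnnt2 ratio ran from -0.43 to 0.58 and Tnnc1 to Tnnt2 from -0.28 to 0.17. Leaving out 1 library turned or moved by over 1.5 times 43 of 47 log2 fold changes of named genes, none of them called. The Tnni1 to Tnni3 ratio kept its direction in all alternatives run.

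The labels give no pairing. Same-numbered libraries deviated from their group means together over tested genes (r = 0.104, 0.181, 0.128 and 0.305 for numbers 1 to 4), although soft 1 was closer to stiff 2 (0.112). With the number as a replicate block, Tnni1 to Tnni3 was lower on stiff in 4 of 4 numbers (exact sign-flip permutation p = 0.125, the smallest that 4 pairs allow; log2 difference -0.22), and 0 troponin genes were called. Tnni2 had 0 to 90 counts and Tnnc2 0 to 18 counts per library, the fewest among the members.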
